A study of Mus musculus with 4 samples.

Results

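Interferon response genes were followed in injured pancreas of mice with and without Ifrd1, a gene for a transcriptional co-regulator. The 43 genes were listed by name, with earlier results of these data known, as transcripts that interferons induce or that carry their signal, and 39 of them had a row on the array that was annotated to that gene alone, out of 22180 genes measured. Oas1a, Gbp2, Ifi44 and Ifi27l2a had no such row and were not analysed here. Where a gene had several rows, the brightest on average stood for it. All mice were 8 weeks old and had received cerulein, a cholecystokinin analog that overstimulates acinar cells and causes pancreatitis, at 100 µg per kg into the peritoneum, with 6 doses on each alternate day, and whole pancreas was taken on day 5. The groups were wild-type mice (n = 2 arrays) and IFRD1 null mice (n = 2 arrays). The labels name biological replicates but give no strain, sex or litter, and they do not say whether Ifrd1 was absent from every cell or how the null allele was made. Uninjured pancreas was not analysed here, so every value compares genotypes within injured tissue. Values are the deposited levels, read as log2 from their range of 0.218 to 13.9, so 1 unit was taken as a 2-fold difference.

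Interferons are secreted proteins, and those of type I are made when cells sense foreign or misplaced nucleic acids. Type I interferons signal through the receptor pair Ifnar1 and Ifnar2 and the gamma interferon through Ifngr1 and Ifngr2, and Janus kinases then activate Stat proteins. Stat2 and Irf9 take part in the complex that binds the interferon-stimulated response element, and gamma interferon acts through the gamma-activated site. The induced proteins block viral replication, degrade or sequester RNA, attack intracellular pathogens and recruit lymphocytes. Leukocytes that enter inflamed tissue and epithelial cells can both carry this programme.

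The 4 arrays matched their genotype labels. Ifrd1 was at 9.04 and 9.07 in wild type 1 and 2 and at 6.99 and 7.09 in Ifrd1 null 1 and 2, although the labels do not say whether its probes cover the deleted part. The 10 measured acinar markers lay above the array median in every array, with a mean level of 11.0 to 11.4. The genotypes also differed in sex-linked genes. Xist was at 2.56 and 3.54 in wild type and at 10.2 and 9.58 in the null, and the Y-linked gene Uty was at 6.41 and 6.40 against 2.25 and 2.36. The Y-linked genes Kdm5d and Eif2s3y were also lower in both null arrays. Genotype and sex as read from these genes therefore cannot be told apart in any comparison below. Wild type 1 held intestinal transcripts, with a mean level of 5.03 over 10 intestinal markers against 3.77 to 3.90 in the other arrays, and Lgals4, the brightest, at 7.24 against 3.97 to 4.31.

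Interferon response genes were mostly higher in the null mean, and none was called by the adjusted single-gene test with 2 arrays a group. Their median from the wild-type mean was 0.35 in Ifrd1 null 1 and 0.07 in Ifrd1 null 2. The oligoadenylate synthetases Oas2, Oas3 and Oasl2, the transcription factor Irf7 and the ubiquitin-like Isg15 stood highest relative to wild type, whereas the transcription factor Irf1, the antiviral enzyme Rsad2 and the peptide transporter Tap1 were at the low end. The median difference over the 39 genes was 0.24 (log2, Ifrd1 null minus wild type), against -0.01 over all genes. In the null mean 28 of the 39 were higher and 11 lower, while 47.2% of all genes were higher. Both null arrays lay above both wild-type arrays for 20 members, a pattern seen in 16.1% of all genes. For 3 members, which were Rsad2, Ifit3 and Irf9, both null arrays lay below both wild-type arrays, a pattern of 19.7% of all genes. With quantile normalization or cyclic loess 18 of the 20 kept that pattern, without Ifit2 and Mx1, and of the lower 3 Ifit3 alone did. For the other 16 members the groups overlapped.

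No member passed the adjusted threshold of 0.05 (0 of 39, limma with Benjamini-Hochberg adjustment over all genes, adjusted p from 0.721 to 0.984). Of all genes 0.00451% passed, which was Uty alone. Ifrd1 itself, at -2.02 in its own null, did not pass (limma adjusted p = 0.138). At an unadjusted p under 0.05 there were 8 members, all higher in the null (Oas2, Oas3, Oasl1, Oasl2, Irf7, Rtp4, Xaf1 and Bst2), against 3.27% of all genes in that direction. No member was lower at that level (0 of 39), against 3.63% of all genes. Of the 39 members, 12 lay below the array median in at least 1 array and 5 of those in all 4, and no detection call was used, so the size of their differences is not exact. Among the 31 members whose mean level was above that of the median gene, 15 had both null arrays above both wild-type arrays and 3 had both below. The same patterns took 8.82% and 29.1% of all genes above the median level. That mean was taken over all 4 arrays, null arrays included. Oasl1 is therefore among the 15, although its wild-type values of 4.48 lay under the gene medians of 4.68 and 4.66 there. Of the 27 members above the median of every array, 14 had both null arrays higher and 3 had both lower.

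**Figure D1:**
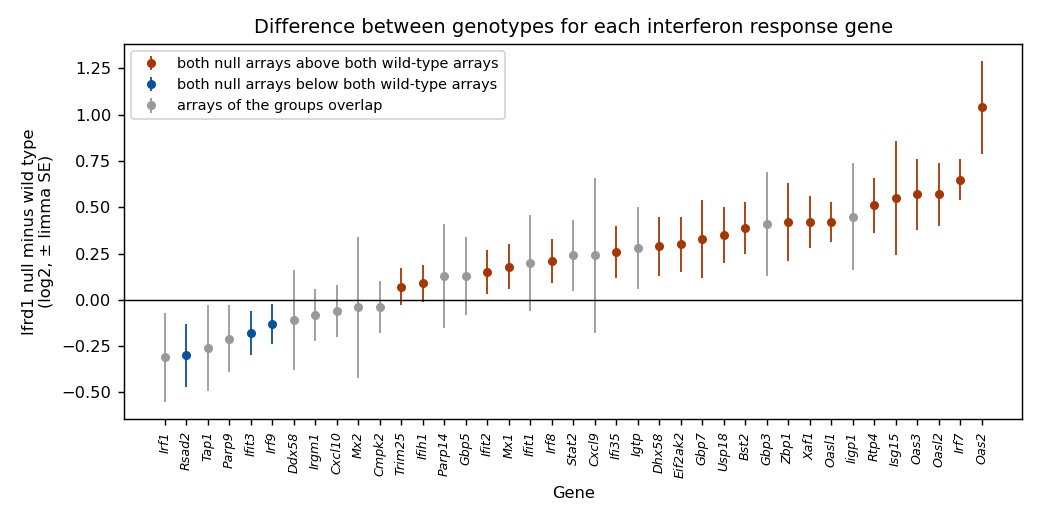
Difference between Ifrd1 null and wild type on the log2 scale for each of the 39 interferon response genes, ordered by size, with bars of limma's standard error; colour shows whether both null arrays lay above, both lay below, or overlapped the wild-type arrays. The differences run from -0.31 for Irf1 to 1.04 for Oas2, and 20 genes have both null arrays above both wild-type arrays.

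The null arrays were not alike. Relative to the wild-type mean, the median member was at 0.35 in Ifrd1 null 1 and at 0.07 in Ifrd1 null 2, and 29 of the 39 members were higher in null 1 than in null 2. In null 1, 30 members lay above both wild-type arrays, where 31.4% of all genes did. In null 2, 20 members did, where 34.6% of all genes did, and each of those 20 was also above both wild-type arrays in null 1. The median difference was thus 0.07 without Ifrd1 null 1, 0.35 without Ifrd1 null 2, 0.16 without wild type 1 and 0.25 without wild type 2. The members at 0 or below in null 2 included Ddx58 (-0.49 from the wild-type mean), Mx2 (-0.59), Irf1 (-0.61), Tap1 (-0.56) and Parp9 (-0.41).

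**Figure D2:**
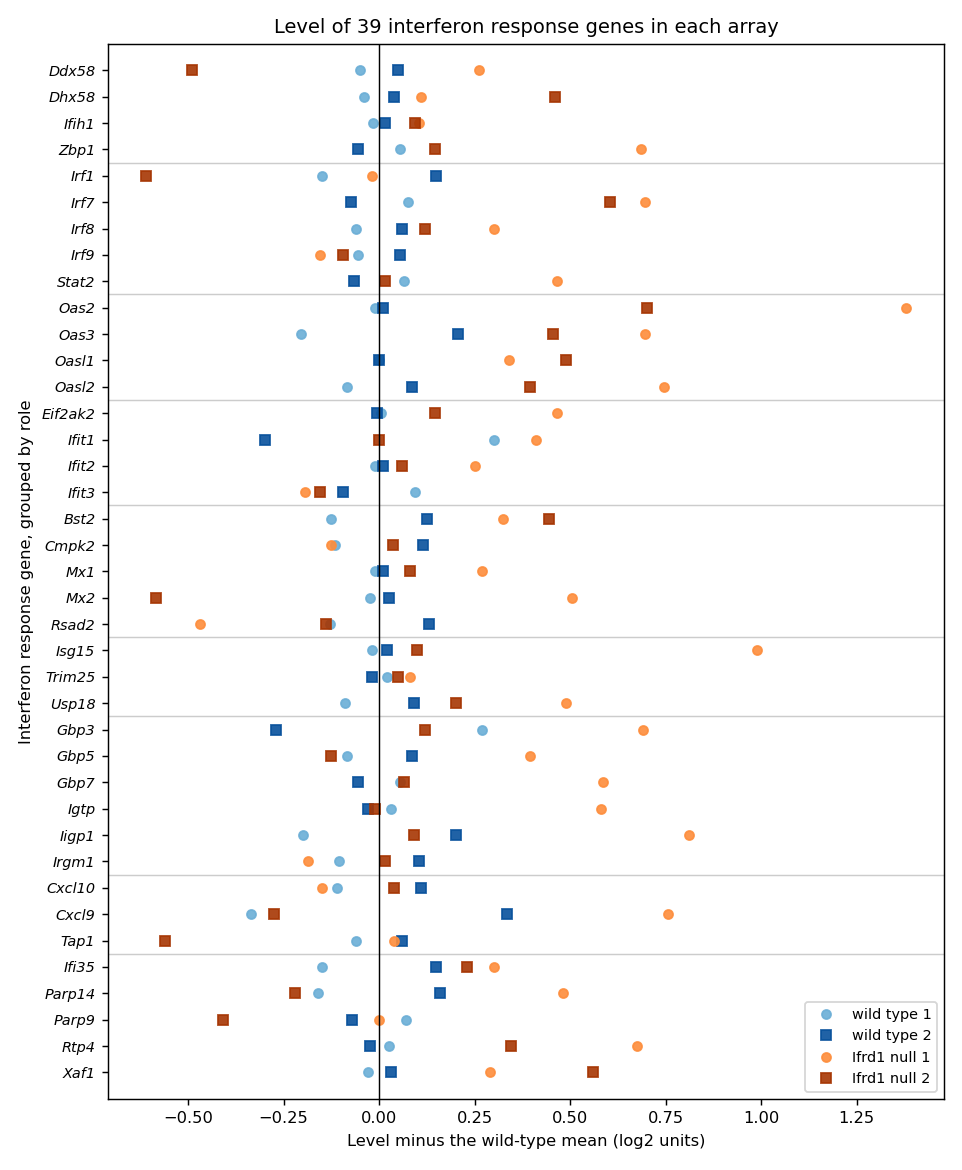
Level of each of the 39 genes in each array minus that gene's wild-type mean (log2 units), with genes grouped by role and grey lines between groups. Ifrd1 null 1 (orange circles) is the highest array for 26 genes, and Ifrd1 null 2 (brown squares) is the highest for 4.

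All 4 oligoadenylate synthetases among the members had both null arrays above wild type, a pattern of 16.1% of all genes. Oas1c, a relative outside the members, did not. Enzymes of this family are switched on by double-stranded RNA and make oligoadenylates that activate an RNA-degrading enzyme, an activity that mouse Oasl1 lacks. Oas2 was at 6.05 and 6.07 in wild type 1 and 2 and at 7.44 and 6.76 in Ifrd1 null 1 and 2, a difference of 1.04 ± 0.25 (SE), or 2.06-fold. Oasl2 had 6.34 and 6.51 in the wild-type pair against 7.17 and 6.82 in null arrays (0.57 ± 0.17). Oas3 was at 4.11 and 4.52 against 5.01 and 4.77 (0.57 ± 0.19). In all 3 genes each null array exceeded each wild-type array and null 1 was the higher of the null pair. Oasl1, a restraint on Irf7 translation, had 4.48 in each wild-type array against 4.82 and 4.97 in the null (0.42 ± 0.11), and here null 2 was the higher. In wild type, Oas3 and Oasl1 were both under the median of their arrays. The unadjusted p of the 4 genes ran from 0.0115 to 0.0328, and each had an adjusted p of 0.721 (limma, all genes). The difference stayed above 0 whichever array was left out, from 0.70 to 1.39 for Oas2 and from 0.35 to 0.49 for Oasl1.

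Among the transcription factors, Irf7 and Irf1 went in different directions. Irf7, which drives the amplifying phase of type I interferon production, was at 6.50 and 6.35 in wild type and at 7.12 and 7.03 in the null, a difference of 0.65 ± 0.11 (SE), or 1.57-fold. The null arrays were 0.53 or more above the wild-type arrays, and its unadjusted p of 0.00349 was the smallest of all members (limma adjusted p = 0.721). Irf8, a factor of myeloid and dendritic cells, was at 5.65 and 5.77 against 6.01 and 5.83 (0.21 ± 0.12). Stat2, the type I interferon signal transducer, was at 6.60 and 6.47 against 7.0 and 6.55 (0.24 ± 0.19), with null 2 between the wild-type arrays. Irf9, its DNA-binding partner, was at 7.17 and 7.28 against 7.07 and 7.13 (-0.13 ± 0.11), so both null arrays were lower by a small margin. Irf1, an early target of gamma interferon, was at 5.59 and 5.89 against 5.72 and 5.13 (-0.31 ± 0.24), and the low value came from null 2 alone. None of these 5 genes passed the adjusted threshold.

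**Figure D3:**
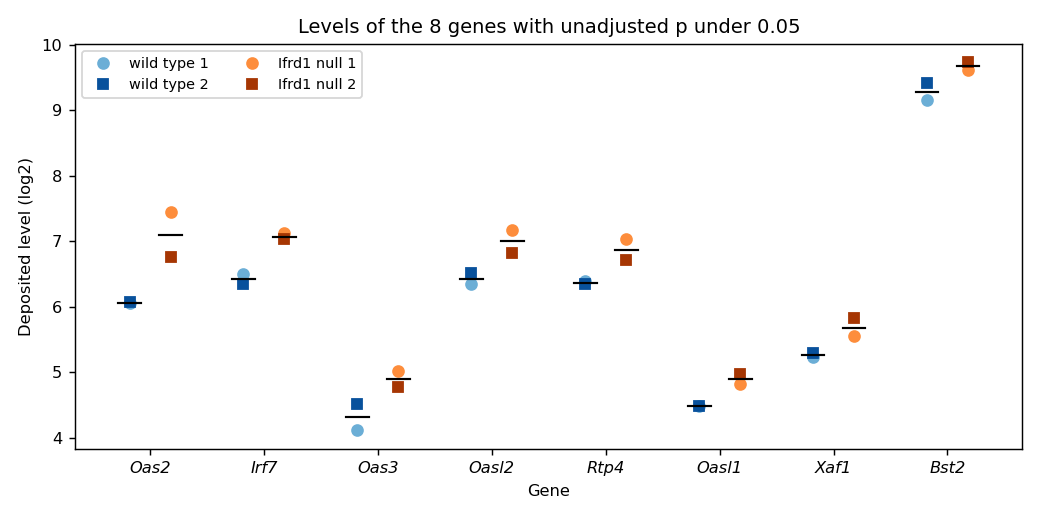
Deposited level (log2) in each array of the 8 members with an unadjusted p under 0.05, with black bars at the group means (n = 2 arrays each); neighbouring genes use different probes, so only arrays of the same gene can be compared. In each gene both null arrays lie above both wild-type arrays, with Irf7 at 7.12 and 7.03 against 6.50 and 6.35.

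The cytosolic sensors differed from each other. Zbp1, a sensor of unusually wound nucleic acids that can trigger cell death, was at 5.76 and 5.65 in wild type and at 6.39 and 5.85 in the null (0.42 ± 0.21, SE). Dhx58, a helicase that tunes the other RNA sensors, was at 4.12 and 4.20 against 4.27 and 4.62 (0.29 ± 0.16), below the array median throughout. Ifih1, a sensor of long double-stranded RNA, was at 6.73 and 6.76 against 6.85 and 6.84 (0.09 ± 0.10). Both null arrays were above wild type in these 3 genes, a pattern of 16.1% of all genes, though for Ifih1 the margin was 0.07. Ddx58, the sensor of RNA ends known as RIG-I, was at 6.56 and 6.66 against 6.87 and 6.12 (-0.11 ± 0.27), with null 1 above and null 2 below both wild-type arrays.

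The Ifit genes, whose products bind viral RNA and curb its translation, held close to wild type. Ifit1 was at 5.49 and 4.89 in wild type and at 5.60 and 5.19 in the null (0.20 ± 0.26, SE), and the wild-type arrays were further apart than the groups. Ifit2 was at 3.89 and 3.91 against 4.15 and 3.96 (0.15 ± 0.12), below the array median in every array. Ifit3 was at 5.24 and 5.05 against 4.95 and 4.99 (-0.18 ± 0.12), so this family did not share a direction. Eif2ak2, the kinase PKR that stops translation on sensing double-stranded RNA, was at 5.97 and 5.96 against 6.43 and 6.11 (0.30 ± 0.15), with both null arrays higher. Adjusted p-values of the group were 0.739 or more (limma, all genes).

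The group of direct antiviral effectors was split. Bst2, or tetherin, which holds budding virus on the cell surface, had 9.16 and 9.41 in wild type and 9.61 and 9.73 in the null, a difference of 0.39 ± 0.14 (SE). Both null arrays were higher, null 2 more so, and the unadjusted p was 0.0397 (limma adjusted p = 0.721). Mx1, a dynamin-like GTPase that traps viral ribonucleoproteins, was at 2.75 and 2.77 against 3.03 and 2.84 (0.18 ± 0.12). Its paralog Mx2 was at 3.51 and 3.56 against 4.04 and 2.95 (-0.04 ± 0.38), with the null arrays on either side of wild type. Both Mx genes lay below the array median in every array. Rsad2, or viperin, which makes a chain-terminating nucleotide, was at 6.33 and 6.59 against 5.99 and 6.32 (-0.30 ± 0.17). Null 2 was only just under wild type 1 for this gene. Its neighbour on chromosome 12, Cmpk2, a mitochondrial nucleotide kinase, was at 5.94 and 6.17 against 5.93 and 6.09 (-0.04 ± 0.14), which became positive after quantile normalization (0.02) or cyclic loess (0.03).

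Of the Isg15 system, a ubiquitin-like tag with its enzymes, the 3 members had both null arrays above wild type, a pattern of 16.1% of all genes. Isg15, the tag itself, was at 3.99 and 4.03 in wild type and at 5.00 and 4.11 in the null (0.55 ± 0.31, SE). Nearly all of that difference lay in null 1, since without it the difference was 0.10, and only null 1 was above its array median. Usp18, the protease that removes the tag and damps the type I receptor, was at 5.76 and 5.94 against 6.34 and 6.05 (0.35 ± 0.15). Trim25, a ubiquitin ligase that helps RIG-I signal, was at 7.24 and 7.20 against 7.30 and 7.27 (0.07 ± 0.10), a margin of 0.03. The adjusted p-values of the 3 members were 0.727 or more (limma, all genes). Among related genes outside the members, Herc6 was at 6.06 and 6.29 against 6.52 and 6.33 (0.25 ± 0.14), with both null arrays higher. Uba7 was at 6.34 and 6.21 against 6.47 and 6.22 (0.07 ± 0.14), with overlapping groups.

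Interferon-inducible GTPases attack the membranes of intracellular pathogens and respond strongly to gamma interferon. The 6 among the members were higher mainly in Ifrd1 null 1. Their median from the wild-type mean was 0.58 in null 1 and 0.04 in null 2. Iigp1 was at 4.95 and 5.35 in wild type and at 5.96 and 5.24 in the null (0.45 ± 0.29, SE). Gbp3 was at 5.05 and 4.51 against 5.47 and 4.90 (0.41 ± 0.28). In both genes null 2 fell within the wild-type range. Gbp7 was at 6.18 and 6.07 against 6.71 and 6.19 (0.33 ± 0.21), the only one of these 6 with both null arrays above wild type, by a margin of 0.01. Igtp was at 4.49 and 4.43 against 5.04 and 4.45 (0.28 ± 0.22), and Gbp5 at 3.80 and 3.97 against 4.28 and 3.76 (0.13 ± 0.21). Irgm1, a regulator of the other immunity-related GTPases, was at 5.08 and 5.29 against 5.00 and 5.20 (-0.08 ± 0.14). Gbp5 lay below the array median in every array and Igtp in 3 of them. Without Ifrd1 null 1 the differences of Gbp5 and Igtp were -0.13 and -0.01. Of related GTPases outside the members, Gbp6, Gbp10 and Gbp11 had both null arrays above wild type, a pattern of 16.1% of all genes. In these genes null 2 was the higher, and Gbp6 and Gbp11 lay below the array median in every array. In Gbp4, Gbp8, Gbp9 and Irgm2 the groups overlapped.

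The T cell-attracting chemokines and the peptide transporter showed no pattern by genotype. Cxcl9 was at 4.55 and 5.22 in wild type and at 5.64 and 4.61 in the null (0.24 ± 0.42, SE), and its 4 arrays spread more within than between the groups. Cxcl10 was at 4.69 and 4.91 against 4.65 and 4.84 (-0.06 ± 0.14). Tap1, which loads peptides for presentation by class I molecules, was at 7.21 and 7.33 against 7.31 and 6.71 (-0.26 ± 0.23), with the low value in null 2 alone. The adjusted p-values of the 3 genes were 0.798 or more (limma, all genes).

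Of the other induced genes, Rtp4 and Xaf1 stood out from Parp9 and Parp14. Rtp4, a chaperone of membrane receptors that interferon induces strongly, was at 6.39 and 6.34 in wild type and at 7.04 and 6.71 in the null (0.51 ± 0.15, SE, or 1.42-fold). Xaf1, a pro-apoptotic partner of Xiap, was at 5.23 and 5.29 against 5.55 and 5.82 (0.42 ± 0.14). Both had all null values above wild type, with unadjusted p of 0.0233 and 0.0308 and a limma adjusted p of 0.721 each. Ifi35 was at 6.05 and 6.35 against 6.50 and 6.43 (0.26 ± 0.14). Parp14, an ADP-ribosyl transferase, was at 6.34 and 6.66 against 6.98 and 6.28 (0.13 ± 0.28). Its neighbour on chromosome 16, Parp9, was at 6.35 and 6.21 against 6.28 and 5.87 (-0.21 ± 0.18). In Parp14 the null arrays enclosed the wild-type arrays, and in Parp9 only null 2 was low.

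Promoter sequence was examined because the response element is what many of these genes share. RefSeq promoters of assembly GRCm38.p6, from 250 bases before to 50 after each gene's start, matched 29 of the 39 members by symbol. Dhx58, Iigp1, Mx1, Mx2, Oas2, Parp14, Parp9, Rtp4, Usp18 and Zbp1 had no entry. The core of the interferon-stimulated response element was searched as TTTCNNTTTC on both strands, where N is any base and overlapping matches count, and a gene with several starts counted if any start held a match. Of the 29 members 16 held it (55.2%), as did 3.99% of 27025 genes with a promoter. The gamma-activated site, searched as TTCNNNGAA, was in 9 of the 29 (31.0%) and in 9.55% of all genes. These shares describe genes that were picked as interferon targets and say nothing of the genotypes.

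The matches upstream of the start in members whose groups did not overlap follow, 5′ to 3′ on the gene's strand, with the matched bases in capitals and 10 bases on each side, so that the elements of higher and lower members can be set beside each other. Positions count from the gene's start as 0. The first 4 genes had both null arrays above both wild-type arrays. They are Isg15 (minus strand, chr4:156200865-156200906, first match at -78), Oas3 (minus strand, chr5:120777715-120777744, at -75), Bst2 (minus strand, chr8:71537577-71537612, at -130) and Gbp7 (plus strand, chr3:142530273-142530302, at -53). Ifit3 (plus strand, chr19:34583363-34583426, at -156) and Rsad2 (minus strand, chr12:26456553-26456582, at -120) had both null arrays below.
Isg15: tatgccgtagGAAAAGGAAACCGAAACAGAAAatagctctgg
Oas3: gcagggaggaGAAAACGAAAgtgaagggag
Bst2: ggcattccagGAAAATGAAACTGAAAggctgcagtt
Gbp7: gtgtgtgcagTTTCAGTTTCagttctccat
Ifit3: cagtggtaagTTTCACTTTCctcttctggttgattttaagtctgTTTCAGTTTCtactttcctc
Rsad2: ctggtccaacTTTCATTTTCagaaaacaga
Isg15 held 3 overlapping matches, Bst2 2 overlapping matches and Ifit3 2 separate ones. The element was thus present in members that were higher and in members that were lower in the null. The 16 members with a match had a median difference of 0.22 and the 13 without a match 0.21 (log2). Both null arrays lay above both wild-type arrays in 6 of the 16 (37.5%) and in 8 of the 13 (61.5%). Irf7, Oasl1, Oasl2 and Xaf1, each at an unadjusted p under 0.05, held no such letters in this window. Over the 641 measured genes with a match that are no members, the median difference was 0.00, and 16.4% had both null arrays above both wild-type arrays, against 15.5% of the 16333 measured genes whose promoters lacked it.

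Upstream of the induced genes, the interferon transcripts gave little signal. Of 20 measured ligand genes 15 lay below the array median in every array, among them Ifnb1, at 1.40 and 1.85 in wild type and 1.46 and 1.98 in the null, and Ifng, at 3.45 in each wild-type array and at 3.50 and 3.17 after loss of Ifrd1. The ligand median was 0.05, with 12 higher and 8 lower, and 2 of the 20 were higher and 0 lower at an unadjusted p under 0.05 (limma). Over all genes those shares were 3.27% and 3.63%. Ifnz, of the zeta interferon family, was at 3.66 and 3.97 in wild type and 4.21 and 4.29 in the null (0.44 ± 0.14, SE), below the array median throughout. Ifna7 had 4.33 and 4.26 in wild type and 4.53 and 4.74 in the null (0.34 ± 0.12, SE). In both genes each null array was above each wild-type array. Ifna1, the brightest ligand row, was at 6.11 and 6.00 against 6.26 and 5.86 (0.00 ± 0.17), with overlapping groups. These interferon genes are near-copies whose probes may not separate them. The receptor subunits went the other way from the induced genes. All 6 were lower in the null mean, with a median of -0.22 and a range of -0.27 to -0.16, and 4 of the 6 had both null arrays below both wild-type arrays, where 29.1% of genes above the median level did. The receptor median was between -0.24 and -0.14 under the other scalings, with all 6 lower in each. Il10rb, a subunit of the lambda interferon and interleukin receptors, was at 8.42 and 8.52 against 8.17 and 8.23 (-0.27 ± 0.11), and Ifngr2 was at 8.20 and 8.32 against 8.05 and 8.01 (-0.23 ± 0.11). No receptor passed at an unadjusted p under 0.05 or after adjustment (0 of 6 each, limma).

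Signalling and sensing components lay closer to wild type. Of 9 measured Janus kinases, Stat proteins and their inhibitors, 8 were lower in the null mean, with a median of -0.11. Both null arrays lay below both wild-type arrays in 4 of them, as in 19.7% of all genes and 29.1% of those above the median level. With quantile normalization 6 were lower and 1 kept to that pattern, and with cyclic loess 7 and 1. Of 11090 genes above the median level 7461 were lower, with a median of -0.07. Tyk2, a kinase of the type I receptor, was at 6.57 and 6.54 against 6.49 and 6.18 (-0.22 ± 0.15, SE). Jak2, a kinase of the gamma interferon receptor, was at 7.12 and 7.28 against 7.14 and 6.88 (-0.19 ± 0.14), and Jak1, which serves both receptors, at 8.84 and 8.92 against 8.77 in each null array (-0.11 ± 0.10). In the deposited values the null arrays were below wild type in Tyk2 and Jak1 and overlapped it in Jak2. Adaptors and kinases of nucleic acid sensing had a median of -0.02 over 14 genes, 6 higher and 8 lower, which became 0.05 with quantile normalization and 0.06 with cyclic loess. Mavs, the mitochondrial adaptor of the RNA sensors, was at 7.50 in each wild-type array and at 7.25 and 7.48 in the null (-0.13 ± 0.13). Tlr9, an endosomal DNA sensor of B and dendritic cells, was at 5.44 and 5.24 against 5.92 and 5.54 (0.39 ± 0.18), and Aim2, a DNA sensor of the inflammasome, at 4.18 and 3.68 against 4.43 and 4.28 (0.42 ± 0.20). None of these genes passed at an unadjusted p under 0.05 (0 of 23, limma).

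A wider set of 85 measured genes that interferons induce, none of them a member, shifted less. Their median was 0.05, with 50 higher and 35 lower, and 18 of 85 (21.2%) had both null arrays above both wild-type arrays, the pattern of 16.1% of all genes. At an unadjusted p under 0.05 (limma), 5 of the 85 were higher and 1 lower, against 3.27% and 3.63% of all genes. Ly6c2 of this set is also a monocyte marker. The lower gene was Tnfsf10, a death ligand, at 6.03 and 5.88 in wild type and 5.14 and 5.51 in the null (-0.63 ± 0.17, SE). Gbp11 was higher, at 2.62 and 2.56 against 2.93 and 3.07 (0.41 ± 0.11), below every array median. Ly6e, the brightest of the set, was at 12.02 and 12.05 against 11.93 and 12.08 (-0.03 ± 0.11). Oas1g, Oas1b and Oas1c were named after their values were seen because they belong to the oligoadenylate synthetases. Oas1g was at 4.01 and 3.98 against 5.53 and 4.55 (1.04 ± 0.34), and its near-identical relatives on chromosome 5 may share its probes. Oas1b was at 4.37 and 4.40 against 4.93 and 4.45 (0.30 ± 0.19). Oas1c was lower in the null mean, at 3.05 and 3.83 against 3.20 and 3.18 (-0.25 ± 0.28), with overlapping groups. The median of this set from the wild-type mean was 0.16 in null 1 and -0.11 in null 2.

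Markers of several cell types also differed between the arrays. In bulk tissue fewer cells of a type and less RNA per cell cannot be told apart. The null mean exceeded the wild-type mean for 16 of 17 measured markers of T and NK cells, whose mean level was 3.96 and 4.06 in the wild-type arrays and 4.43 and 4.19 in the null arrays. Their median from the wild-type mean was 0.41 in null 1 and 0.15 in null 2. At an unadjusted p under 0.05 (limma) 4 of the 17 were higher, against 3.27% of all genes. Cd4, the brightest of them, was at 5.24 and 5.87 against 6.31 and 5.34 (0.27 ± 0.40, SE). No marker was at 0 on this scale, but 8 of the 17 lay below every array median, Cd8a and Gzmb included. B and plasma cell markers had medians from the wild-type mean of 0.58 in null 1 and -0.16 in null 2 (13 genes, mean level 5.85 and 5.79 in wild type, 6.41 and 5.57 in the null). Macrophage and monocyte markers had 0.21 and -0.39 (15 genes, mean level 7.92 and 8.05 in wild type, 8.18 and 7.61 in the null), and all 15 were higher in null 1 than in null 2. The brightest of these lists were Xbp1 at -0.16 ± 0.14 and Lyz2 at -0.35 ± 0.29 (log2 difference, SE). Xbp1 was not typical of its list. While 10 of the 13 B and plasma cell markers were higher in null 1 than in null 2, Xbp1, Derl3 and Sdc1 were lower. Dendritic cell markers, a list that includes the member Bst2, had 0.08 and 0.04 over 12 genes, and Siglech, which marks the plasmacytoid cells that make much interferon, was at 4.05 and 3.86 against 4.01 in both null arrays. Neutrophil markers had 0.21 and -0.04 over 10 genes (mean level 3.89 and 3.53 in wild type, 3.98 and 3.74 in the null), 8 of them higher in the null mean. Below every array median lay 8 of these 10. Acinar markers had -0.22 and 0.19 over 10 genes, with the brightest, Ctrb1, at 0.02 ± 0.10.

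Most markers of duct, vessel and stromal cells were lower in the null mean (7 of 8, 9 of 10 and 8 of 10). The brightest of each list were Muc1 (-0.15 ± 0.16, SE), Eng (-0.31 ± 0.12) and Dcn (-0.14 ± 0.14) among duct, endothelial and fibroblast markers. Duct markers had a median difference of -0.37 over 8 genes (mean level 8.39 and 8.44 in wild type, 8.16 and 8.08 in the null), 5 had both null arrays below both wild-type arrays, and 4 were lower at an unadjusted p under 0.05. Endothelial markers had -0.19 over 10 genes (mean level 6.17 and 6.19 against 6.02 and 5.94), with 7 in that pattern and 3 lower at an unadjusted p under 0.05. Fibroblast and stellate cell markers had -0.20 over 10 genes (mean level 8.98 and 8.81 against 8.98 and 8.45), with 4 in that pattern. Of all genes 19.7% showed that pattern, and 29.1% of those above the median level. At an unadjusted p under 0.05 (limma) 3.63% of all genes were lower. The interferon receptors were lower in the same arrays, and the part of these cell markers in that was not tested.

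In Ifrd1 null 2, macrophage and B cell markers had medians below wild type and T and NK cell markers a median above it. The median of the 39 members there was 0.07 from the wild-type mean, with 20 above both wild-type arrays and 10 below both. Of all 22180 genes, 7673 lay above both and 8097 below both. Among the highest members, the 4 oligoadenylate synthetases had a median of 0.47, and Irf7 was at 0.60, Xaf1 0.56, Dhx58 0.46 and Bst2 0.45. Dhx58 was below the array median throughout. Among the lowest were Irf1 (-0.61), Mx2 (-0.59), Tap1 (-0.56) and Ddx58 (-0.49). Isg15 (0.10), Gbp7 (0.07) and Stat2 (0.01) were close to wild type in that array. The part of the cell mix and of sex in these differences was not tested.

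**Figure D4:**
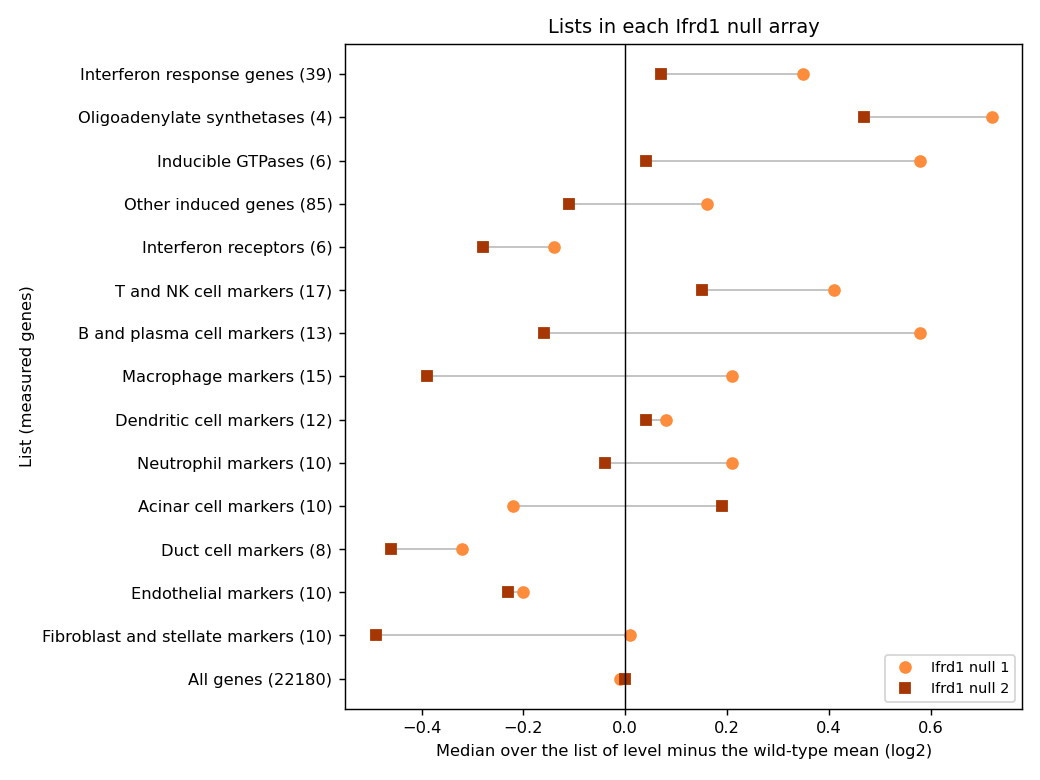
Median over each list of the level in Ifrd1 null 1 (circles) and Ifrd1 null 2 (squares) minus the wild-type mean (log2), with the number of measured genes in brackets. The 4 oligoadenylate synthetases among the members are above 0 in both null arrays (0.72 and 0.47), as are T and NK cell markers (0.41 and 0.15). B cell and macrophage markers are above 0 in null 1 and below it in null 2, and duct and endothelial markers are below 0 in both.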

How the data were processed

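Biotin-labelled total RNA of whole pancreas was measured on Affymetrix arrays, per the labels' protocols. The deposited values, 1 per array and transcript cluster, were treated as log2 levels from their range. The authors' background correction, probe summary, normalization and log base are not given in the sources used here. Array medians over all rows were 4.11, 4.08, 4.15 and 4.13. Of 41345 rows, 23521 carried 1 gene symbol in the platform annotation, 1814 several and 16010 no symbol there; only the first were used, with the row of highest mean per gene, which gave 22180 genes. No filter on dim rows was applied.

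Groups were compared with limma 3.58.1 (lmFit, eBayes) in R 4.3.3 as Ifrd1 null minus wild type without covariates, with two-sided p-values adjusted over all genes by Benjamini-Hochberg at 0.05. Errors are limma's moderated standard errors. The fit was tested on simulated data with 200 of 22180 genes changed, over 20 runs. It called 0% of the genes changed by 0.5, 2.5% at 1, 77.1% at 2 and 94.3% at 4 (log2). Differences of the size seen in the members were thus seldom called there. An exact permutation test of 2 arrays against 2 cannot go below p = 0.333, so none is reported, and the number of arrays limits the precision. P-values measure the spread between these samples. The members and lists were chosen with earlier results of these data known. Every member is described; of each other pathway list, genes named are the brightest and the pair with the smallest unadjusted p, with others chosen for their role after values were seen; of each marker list, the brightest. Of the listed symbols, Ifnz, Tmem173 and Mb21d1 were matched through synonyms. Alternatives were other scalings, the replicate block, another eBayes, row averaging, a level filter and each array left out.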

Additional observations from a re-analysis of the deposited data

How the results depend on the processing

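No member passed the adjusted threshold under any of the 12 alternatives (0 of 39, or 0 of 31 with the level filter). The smallest adjusted p of a member ranged from 0.473 to 0.890, and the median difference of the members stayed above 0, from 0.07 to 0.35 with an array left out and from 0.20 to 0.26 otherwise. Members with both null arrays above wild type numbered 19 to 20 of 39 with all arrays, and 15 of 31 with the level filter. That pattern took 14.6% of all genes with arrays centred on their medians, 17.9% with cyclic loess and 8.82% with the level filter. With an array left out such members numbered 20 to 30, where the pattern is easier to meet (28.8% to 34.6% of all genes). Those with both null arrays below were 1 with quantile normalization, 1 with cyclic loess and 4 to 10 with an array left out. Over all genes, 5 passed with arrays centred on their medians, 4 with cyclic loess, 5 with a trend and robust eBayes, 0 among genes above the median level (884 at unadjusted p under 0.05, with fewer genes tested), 0 without genes of chromosomes X and Y (1457; chosen after seeing the data) and 0 with any array left out (1301 to 2232 at unadjusted p under 0.05). The labels give both groups the replicate numbers 1 and 2 without saying what they share, and deviations of same-numbered arrays correlated at -0.0352; with the replicate block 4 genes passed, no member among them (smallest member adjusted p = 0.860). The sign held under all alternatives for 27 members, 23 higher and 4 lower. Cmpk2 turned to 0.02 with quantile normalization and 0.03 with cyclic loess. With an array left out, 12 members changed sign: Ifit1 (-0.10 to 0.50), Mx2 (-0.59 to 0.51), Gbp5 (-0.13 to 0.39), Ddx58 (-0.49 to 0.26), Cxcl9 (-0.27 to 0.76), Cxcl10 (-0.16 to 0.05), Cmpk2 (-0.16 to 0.07), Parp9 (-0.41 to 0.00), Parp14 (-0.23 to 0.48), Irgm1 (-0.19 to 0.02), Igtp (-0.01 to 0.58) and Tap1 (-0.56 to 0.04). The causes were not tested.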

Other observations

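Several members lie next to each other in the order of protein-coding genes (at most 3 places apart), and neighbours did not always share a direction. On chromosome 5 the neighbours Oas2 and Oas3 differed by 1.04 and 0.57 and the neighbours Oasl1 and Oasl2 by 0.42 and 0.57, whereas Cxcl9 and Cxcl10, also side by side on chromosome 5, were at 0.24 and -0.06. On chromosome 19 Ifit2 and Ifit3 stood at 0.15 and -0.18, and on chromosome 3 Gbp5, Gbp7 and Gbp3 ran from 0.13 to 0.41. Irf8 and Ifi35 each had a further row with a lower level, which gave differences of 0.04 and 0.12 against 0.21 and 0.26 for the rows used.

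Retnlg, a secreted protein of neutrophils, was among the markers of other cells at 5.22 and 4.98 in wild type and 6.56 and 5.87 in the null (1.11 ± 0.27, SE; chosen after its values were seen). Of the 10 neutrophil markers 8 were higher in the null mean, with a median difference of 0.14, and only Retnlg passed an unadjusted p under 0.05 (limma). The markers counted as higher include Csf3r, at a difference of 0.00. In all 4 arrays, 8 of the 10 markers lay below the array median. Mpo was at 3.81 and 3.33 against 3.82 in each null array (0.25 ± 0.19), and S100a9 at 3.75 and 3.11 against 4.14 and 3.35 (0.31 ± 0.35). Ly6g went the other way (-0.66 ± 0.48), and Csf3r, the list's brightest member, was at 5.79 and 5.80 in each group.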
